A study of Mus musculus with 6 samples.

Results

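The genes described here are 10 members of the S100 and annexin families, 6 S100 genes (S100a4, S100a6, S100a8, S100a9, S100a10 and S100a11) and 4 annexin genes (Anxa1, Anxa2, Anxa3 and Anxa5). They were chosen by name, with earlier results of these data known, out of 24422 genes counted in whole mouse kidneys. All 10 were detected and tested. RNA was sequenced from kidneys of C57BL/6 mice at postnatal day 13 that were kept on an iron-sufficient diet (220 ppm iron). The 3 Control kidneys were labelled wild type. The other 3 carried floxed alleles of the transferrin receptor TfR1 (Tfr1f/f) together with Six2Cre, a recombinase transgene expressed by nephron progenitors. The gene that encodes TfR1, Tfrc, had 5534, 6485 and 3667 normalized counts in Control replicates 1, 2 and 3 and 6976, 4045 and 5898 in the libraries labelled TfR1 knockout. It was not lower in them (log2 fold change 0.11 ± 0.29 SE, DESeq2 adjusted p = 0.853), so these libraries are called the labelled knockouts throughout. The Tfrc count covers all of its exons, and the floxed segment holds only exons 3 and 4. Six2Cre does not act in the stroma, the collecting duct or blood cells, all of which a whole kidney holds, and some TfR1-positive tubule cells are known to escape it. In such bulk samples, fewer cells of a type and less RNA per cell cannot be told apart.

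S100 proteins are small calcium-binding proteins with paired EF-hand motifs. S100a8 and S100a9 form calprotectin, an abundant protein of neutrophils and some macrophages that binds zinc, manganese and iron. Annexins bind phospholipid membranes when calcium is present, and several form complexes with S100 proteins, best known among them the tetramer of Anxa2 and S100a10 at the cell surface. In the kidney, Anxa2 and several S100 genes are known from injured and dedifferentiated tubules as well as from stroma and white blood cells.

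All 6 S100 genes lie on mouse chromosome 3 (mm9), among 13 S100 genes annotated there. S100a8 (chr3:90472993-90473956, plus strand) and S100a9 (chr3:90496554-90499643, minus strand) face each other across 22.6 kb. S100a4 (chr3:90407692-90409967) and S100a6 (chr3:90416816-90418336) lie upstream of this pair on the plus strand. S100a11 (chr3:93324410-93330209) and S100a10 (chr3:93359002-93368565) are plus-strand neighbours 28.8 kb apart, 2825 kb beyond S100a9. The annexin genes are scattered over 4 chromosomes: Anxa1 on the minus strand at chr19:20447918-20465434, Anxa2 on the plus strand at chr9:69301427-69339602, Anxa3 on the plus strand at chr5:97222404-97274987, and Anxa5 on the minus strand at chr3:36347847-36374765. Exons of Anxa2 overlap an annotated antisense transcript, Gm16144, and since the counting was not stated to use strand, reads of both cannot be told apart. No other member shares exon sequence with another annotated gene.

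The 250 bases before the start site are shown for the calprotectin pair, whose counts moved together, and for S100a11, whose levels per length were the highest of all members. The sequences are RefSeq promoters (GRCm38.p6) found once each, letter for letter, in mm9. Their start sites are those of RefSeq, while the gene positions above come from GENCODE vM1. The S100a11 window therefore reaches into the gene as placed above, as do the windows of Anxa1 and Anxa2, which are not shown. Each is written 5′ to 3′ on the strand of its gene. Capitals mark matches, on either strand, to letters of AP-1 (TGANTCA), STAT (TTCNNNGAA), C/EBP (TTGCNNAA), the core of the hypoxia response element (ACGTG) and the TATA box (TATAAA).
S100a8 (chr3:90472743-90472992, plus strand): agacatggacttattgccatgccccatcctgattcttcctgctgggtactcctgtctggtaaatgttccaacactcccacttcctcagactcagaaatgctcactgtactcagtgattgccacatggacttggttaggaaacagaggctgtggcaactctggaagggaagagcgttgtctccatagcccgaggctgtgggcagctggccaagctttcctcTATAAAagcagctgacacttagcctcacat
S100a9 (chr3:90499644-90499893, minus strand): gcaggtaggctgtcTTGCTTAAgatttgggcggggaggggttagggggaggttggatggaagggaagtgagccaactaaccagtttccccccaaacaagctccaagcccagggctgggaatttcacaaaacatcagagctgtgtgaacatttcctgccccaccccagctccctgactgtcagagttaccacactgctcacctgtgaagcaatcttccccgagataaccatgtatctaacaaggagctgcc
S100a11 (chr3:93324168-93324417, plus strand): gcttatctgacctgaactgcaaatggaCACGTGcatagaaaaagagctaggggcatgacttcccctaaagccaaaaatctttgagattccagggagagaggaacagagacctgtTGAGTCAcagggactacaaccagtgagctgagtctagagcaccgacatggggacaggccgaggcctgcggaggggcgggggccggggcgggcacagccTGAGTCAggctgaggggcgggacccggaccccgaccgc

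Of these windows, that of S100a8 held a TATA box match at -30 and that of S100a9 a C/EBP match at -236, counting from -1 at the base before the start. The S100a11 window held 2 AP-1 matches, at -136 and -38, and a palindromic match to the hypoxia core at -223. Promoters of 8 members were matched in the table. Among them, 2 (S100a11 and Anxa2) held an AP-1 match, 2 (S100a9 and Anxa1) a C/EBP match, 3 (S100a11, Anxa2 and Anxa5) a hypoxia core match, 4 (S100a4, S100a8, Anxa1 and Anxa2) a TATA box match and 0 a STAT match. Of all 32851 promoter windows of this length, 6.75% held the AP-1 letters, 9.56% the C/EBP letters, 16.6% the hypoxia core, 12.4% the TATA box and 7.02% the STAT letters. A match describes letters only.

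Total counts ranged from 16591156 to 22898008 per library, and the 10 members took 0.108 to 0.167% of them. All 8 tubule and podocyte markers used to check the tissue were detected. Control replicate 3 stood apart from the other Controls. Its 12 fibroblast and myofibroblast markers summed to 185569 normalized counts, against 93987 and 95286 in the others, and its tubule markers to 93639, against 191240 and 201574. Among the Controls it also had the highest count for 9 of the 10 members, S100a11 being the exception. The study describes its wild-type controls as littermates, but which kidneys shared a litter was not given in the sources used here. The p-values set the group difference against the spread between libraries of a group. They take the kidneys as independent, which could not be checked.

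By DESeq2, 2 of the 10 members, S100a8 and S100a9, were higher in the labelled knockouts at an adjusted p under 0.05 and a change of at least 2-fold, where 4.41% of all 16509 genes tested were higher by the same rule. S100a11 and Anxa3 also had an adjusted p under 0.05 but changed by less than 2-fold, which brings the count without a fold threshold to 4 of 10, beside 7.74% of all genes. No member was lower by either rule (0 of 10 by DESeq2, 0 also at an unadjusted p under 0.05, and 0 by edgeR and limma-voom), where 4.46% of all genes were lower with the fold threshold and 7.18% without it. edgeR's quasi-likelihood test called 0 members higher at an FDR under 0.05 and 2-fold, against 2.48% of the 15308 genes it tested, and 0 lower, against 2.31%. At an unadjusted p under 0.05 edgeR had 5 members higher (DESeq2 6). No share of all genes was computed for the unadjusted rule, here or below, so such counts stand without a background. At an FDR under 0.05 without a fold threshold edgeR and limma-voom each had 1 member higher, Anxa3, beside 3.22% and 3.17% of the genes they tested. The median log2 fold change of the members was 0.57, that of all genes tested 0.01. A positive value was found for 9 members and for 8373 of the 16509 genes tested. In 2 members, S100a11 and Anxa3, every labelled knockout lay above every Control, and in 0 every one lay below. Over all genes tested, 16.9% did not overlap in the first direction and 16.9% in the second.

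**Figure D1:**
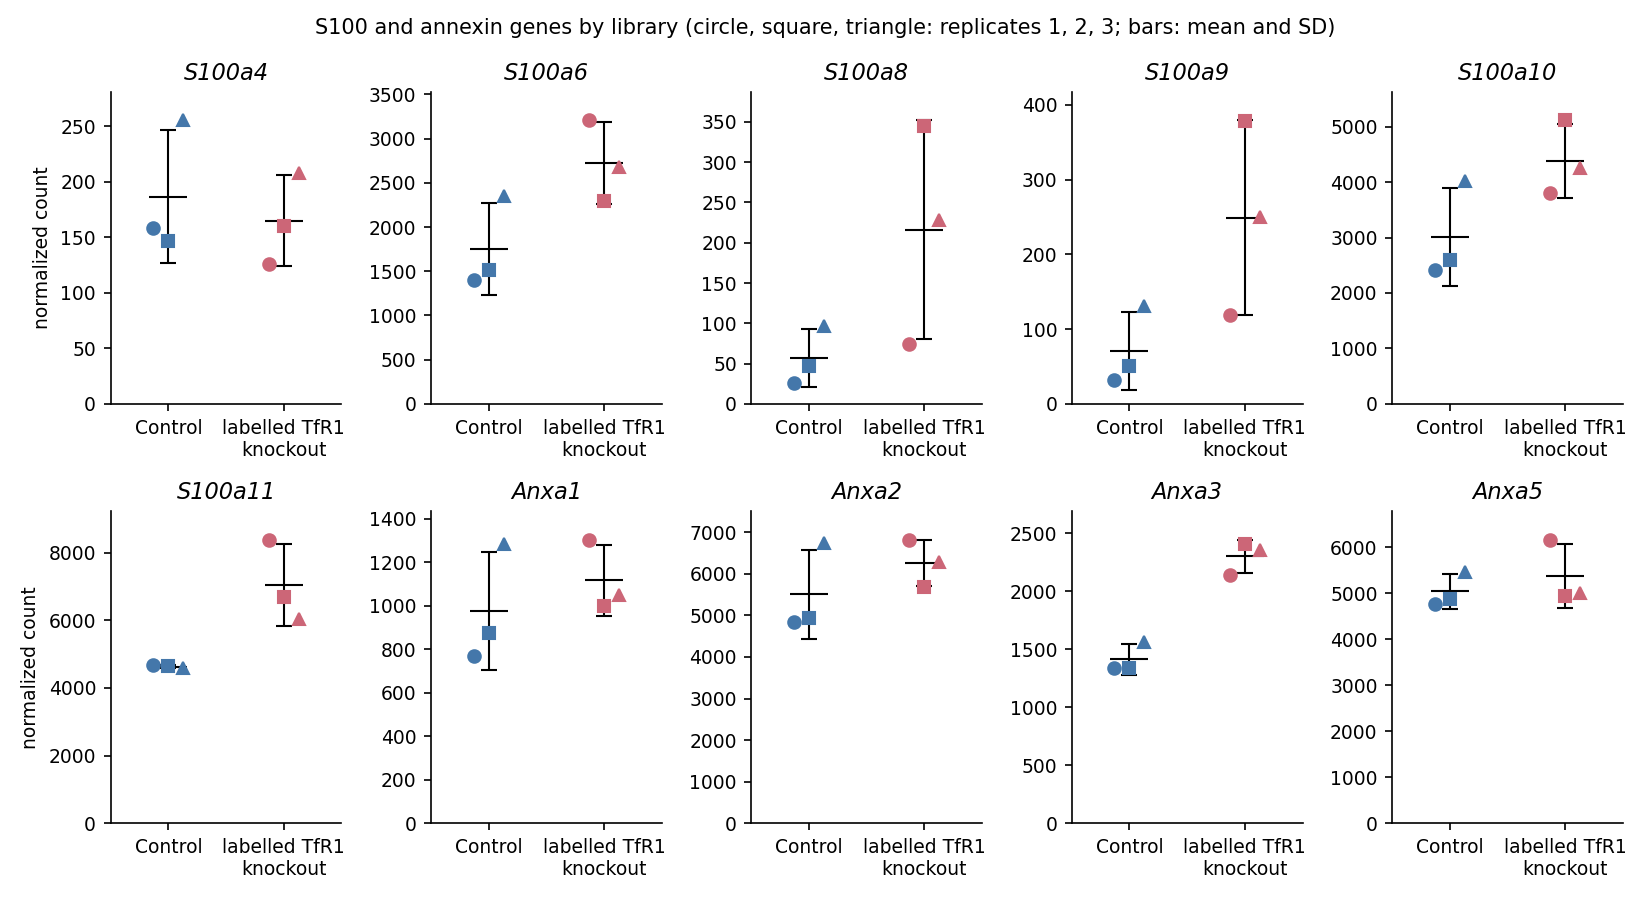
Normalized counts (linear axes from 0) of the 10 members in each Control and labelled TfR1 knockout library, with circle, square and triangle for replicates 1, 2 and 3 and bars for the mean and SD of each group (n = 3). Only S100a11 and Anxa3 show groups that do not overlap, and the triangle of Control replicate 3 is the highest Control in every panel but that of S100a11.

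S100a8 and S100a9, the subunits of calprotectin, had the largest fold changes of the members. Control replicates 1 to 3 had 26.4, 47.3 and 96.9 normalized counts of S100a8, and labelled knockout replicates 1 to 3 had 74.6, 345 and 228. Labelled knockout replicate 1 lay below Control replicate 3, so the groups overlapped, while replicates 2 and 3 lay above every Control. S100a8 rose 3.81-fold (log2 fold change 1.93 ± 0.61 SE, 95% interval 0.74 to 3.12, DESeq2 adjusted p = 0.0151), and edgeR gave a similar 1.91 with an FDR of 0.119.

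S100a9 had 32.2, 50.9 and 130 normalized counts in the Controls and 118, 379 and 250 in the labelled knockouts. It showed the same order of libraries as S100a8, again with labelled knockout replicate 1 below Control replicate 3. S100a9 rose 3.51-fold (log2 fold change 1.81 ± 0.57 SE, 95% interval 0.69 to 2.93, DESeq2 adjusted p = 0.0155), with an edgeR FDR of 0.118. Both calls were lost when any of 4 libraries was left out. Without labelled knockout replicate 2 the log2 fold changes were 1.42 for S100a8 (DESeq2 adjusted p = 0.164) and 1.38 for S100a9 (0.149), and without Control replicate 3 they were 2.55 and 2.58, both still called. The calls were also lost without Control replicate 1 (DESeq2 adjusted p = 0.110 and 0.107), Control replicate 2 (0.0940 and 0.111) or labelled knockout replicate 3 (0.0839 and 0.0768).

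As a sum, neutrophil markers moved with this pair, and their part in it was not tested. In replicate order, 12 neutrophil markers summed to 139, 168 and 372 normalized counts in the Controls and to 251, 650 and 452 in the labelled knockouts. Ranked by this sum, the 6 libraries stood in the same order as by S100a8 and by S100a9. Of the 10 markers with an adjusted p, 2 (Retnlg and Mmp8, named after their values were seen) were higher by DESeq2, 0 by edgeR (4 and 3 at an unadjusted p under 0.05). The defining markers were low in both groups, with means of 0.66 and 4.3 normalized counts for Ly6g, a surface protein of mature neutrophils, 6.2 and 8.6 for Mpo and 1.4 and 2.9 for Elane, granule enzymes made by their precursors. Cxcr2, a chemokine receptor, had means of 56.9 in Control and 67.8 in the labelled knockouts (DESeq2 adjusted p = 0.699), and Csf3r, the receptor of granulocyte colony-stimulating factor, 46.7 and 86.1 (0.0546). Not every marker ranked the libraries as the pair did, although all 10 with an adjusted p had a positive log2 fold change. Mpo, Camp and Ltf, the last 2 also named after their values were seen, were highest in Control replicate 3 (15.1, 37.7 and 74.3). Csf3r was highest in labelled knockout replicate 1 (100). For every 100 counts of the neutrophil sum there were 18.9, 28.1 and 26.0 of S100a8 in the Controls and 29.8, 53.1 and 50.4 in the labelled knockouts. This proportion was higher in each labelled knockout than in each Control, by little in replicate 1. For S100a9 the proportion was 23.1, 30.3 and 35.0 in the Controls and 47.2, 58.3 and 55.2 in the labelled knockouts. There too each labelled knockout lay above each Control. The make-up of the sum differed as well. Cxcr2 and Csf3r gave 59.4 and 40.4 of the 139 counts in Control replicate 1, and 85.7 and 93.4 of the 650 in labelled knockout replicate 2. What the difference in proportion reflects was not tested.

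Macrophage markers were also higher, and their part in the change of S100a8 and S100a9 was likewise not tested. The sum of 15 macrophage markers was 3125 to 5387 normalized counts in Control and 7110 to 10976 in the labelled knockouts, and 10 of the 15 were higher by DESeq2, 5 by edgeR. Lyz2, the lysozyme of myeloid cells and the macrophage marker of highest count, had 632 ± 247 normalized counts in Control and 2220 ± 506 in the labelled knockouts (mean ± SD, n = 3 each). All 3 labelled knockouts lay above every Control for this sum. Among these 3 libraries alone it ran opposite to S100a8: replicate 1, lowest of the 3 for S100a8 and S100a9, had the highest macrophage sum, and replicate 2 the lowest.

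**Figure D2:**
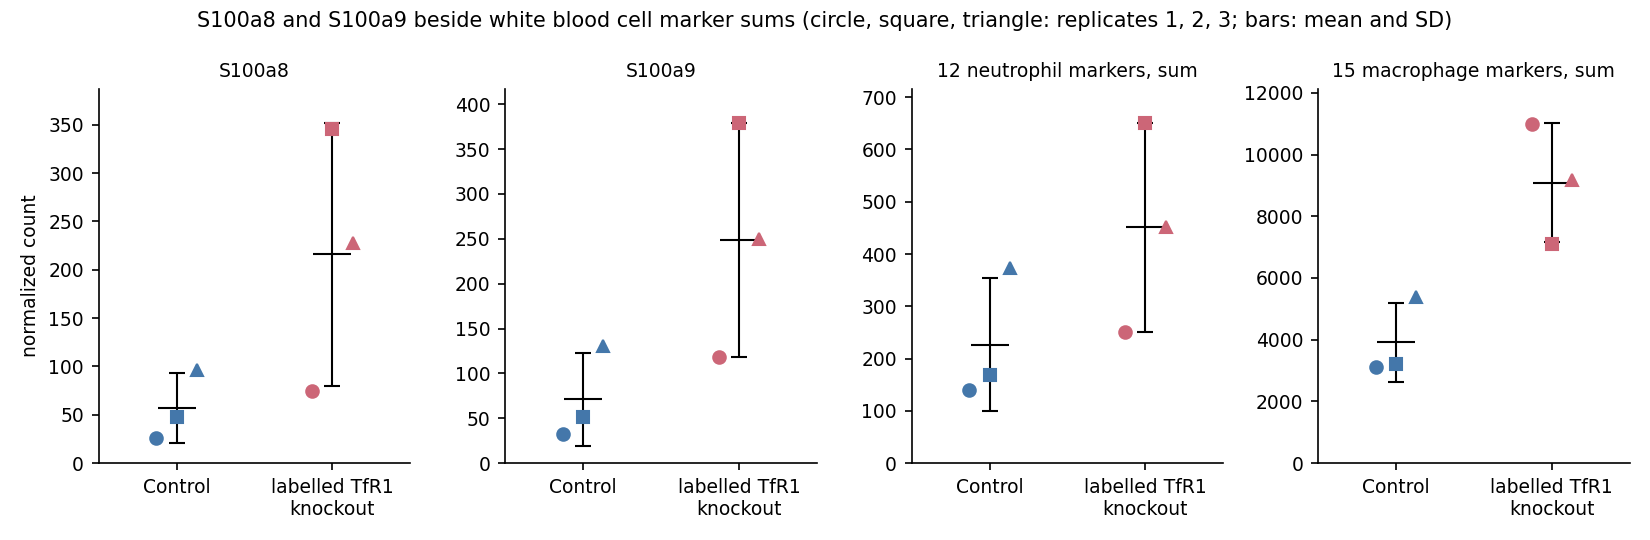
Normalized counts (linear axes from 0) of S100a8, S100a9 and the sums of 12 neutrophil and 15 macrophage markers in each library, with circle, square and triangle for replicates 1, 2 and 3 and bars for the mean and SD (n = 3). S100a8, S100a9 and the neutrophil sum are highest in labelled knockout replicate 2 (345, 379 and 650), while the macrophage sum is highest in labelled knockout replicate 1 (10976).

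Anxa3, an annexin of epithelial and myeloid cells, gave the change least dependent on the method. It had 1334, 1337 and 1566 normalized counts in the Controls and 2141, 2409 and 2359 in the labelled knockouts. Every labelled knockout lay above every Control, with a gap wider than the spread within either group. Anxa3 rose 1.63-fold (log2 fold change 0.71 ± 0.15 SE, 95% interval 0.40 to 1.01, DESeq2 adjusted p = 0.000132; edgeR FDR = 0.0264). Its adjusted p stayed under 0.05 in all 15 alternatives tried, with log2 fold changes from 0.59 to 0.78.

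S100a11, a partner of Anxa1 in membrane contacts, had 4670, 4638 and 4594 normalized counts in the Controls and 8389, 6681 and 6039 in the labelled knockouts. The Controls were nearly equal, and all labelled knockouts lay above them. S100a11 rose 1.52-fold by DESeq2 (log2 fold change 0.60 ± 0.18 SE, 95% interval 0.25 to 0.95, adjusted p = 0.00901), while edgeR gave an FDR of 0.0824. The DESeq2 adjusted p rose to 0.107 without Control replicate 1, 0.101 without Control replicate 2 and 0.0659 with scaling to total counts.

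S100a6, a protein of proliferating epithelium and fibroblasts, had 1398, 1510 and 2355 normalized counts in the Controls and 3207, 2293 and 2674 in the labelled knockouts. Only labelled knockout replicate 2 lay below the highest Control, replicate 3. The change missed the threshold (log2 fold change 0.64 ± 0.26 SE, 95% interval 0.12 to 1.15, DESeq2 adjusted p = 0.0846; edgeR FDR = 0.151). Without Control replicate 3 it was 0.90, with a DESeq2 adjusted p of 0.00035, and without Control replicate 1 it was 0.49 (0.377).

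S100a10, which links Anxa2 to membrane channels and binds plasminogen, had 2411, 2602 and 4021 normalized counts in the Controls and 3800, 5112 and 4249 in the labelled knockouts. Labelled knockout replicate 1 lay below Control replicate 3, so the groups overlapped. The log2 fold change was 0.54 ± 0.26 SE (95% interval 0.04 to 1.04, DESeq2 adjusted p = 0.141; edgeR FDR = 0.195). Without Control replicate 1 it was 0.40 (DESeq2 adjusted p = 0.483). Without Control replicate 3 it was 0.81, with a DESeq2 adjusted p of 0.0010, and 6 of the 10 members then had an adjusted p under 0.05: the 4 named above, S100a6 and S100a10. In the same fit 7.53% of all genes tested were higher by this rule, with no fold threshold. Without Control replicate 1 or 2 only 1 member, Anxa3, had an adjusted p under 0.05, beside 4.15% and 4.29% of all genes tested.

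Anxa2, the partner of S100a10, had 4847, 4934 and 6736 normalized counts in the Controls and 6808, 5684 and 6294 in the labelled knockouts. The groups overlapped, with Control replicate 3 nearly as high as the highest labelled knockout. The log2 fold change was 0.19 ± 0.20 SE (95% interval -0.20 to 0.58, DESeq2 adjusted p = 0.586).

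Anxa1, which binds formyl peptide receptors and limits neutrophil recruitment, had 771, 877 and 1285 normalized counts in the Controls and 1305, 999 and 1049 in the labelled knockouts. The groups overlapped, with Control replicate 3 just below the highest labelled knockout. The log2 fold change was 0.19 ± 0.25 SE (95% interval -0.30 to 0.69, DESeq2 adjusted p = 0.670).

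Anxa5, which binds phosphatidylserine on dying cells, had 4775, 4875 and 5468 normalized counts in the Controls and 6168, 4950 and 4997 in the labelled knockouts. Labelled knockout replicates 2 and 3 lay within the range of the Controls and replicate 1 above it. The log2 fold change was 0.09 ± 0.17 SE (95% interval -0.23 to 0.42, DESeq2 adjusted p = 0.772), and its sign turned to -0.02 without that library and to -0.01 with scaling to total counts.

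S100a4, known as fibroblast-specific protein and also made by white blood cells, had 158, 146 and 255 normalized counts in the Controls and 126, 160 and 208 in the labelled knockouts. The groups overlapped almost fully, with Control replicate 3 the highest of all 6 libraries. The log2 fold change was -0.18 ± 0.33 SE (95% interval -0.82 to 0.47, DESeq2 adjusted p = 0.780), and without Control replicate 3 it was 0.11. Of the 12 fibroblast markers 3 were lower and 0 higher by DESeq2, 0 in either direction by edgeR (3 lower and 0 higher at an unadjusted p under 0.05), and Col3a1, their highest in count, had a log2 fold change of -1.15 ± 0.39 SE (DESeq2 adjusted p = 0.0249). The part of stromal content in the S100a4 values was not tested.

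**Figure D3:**
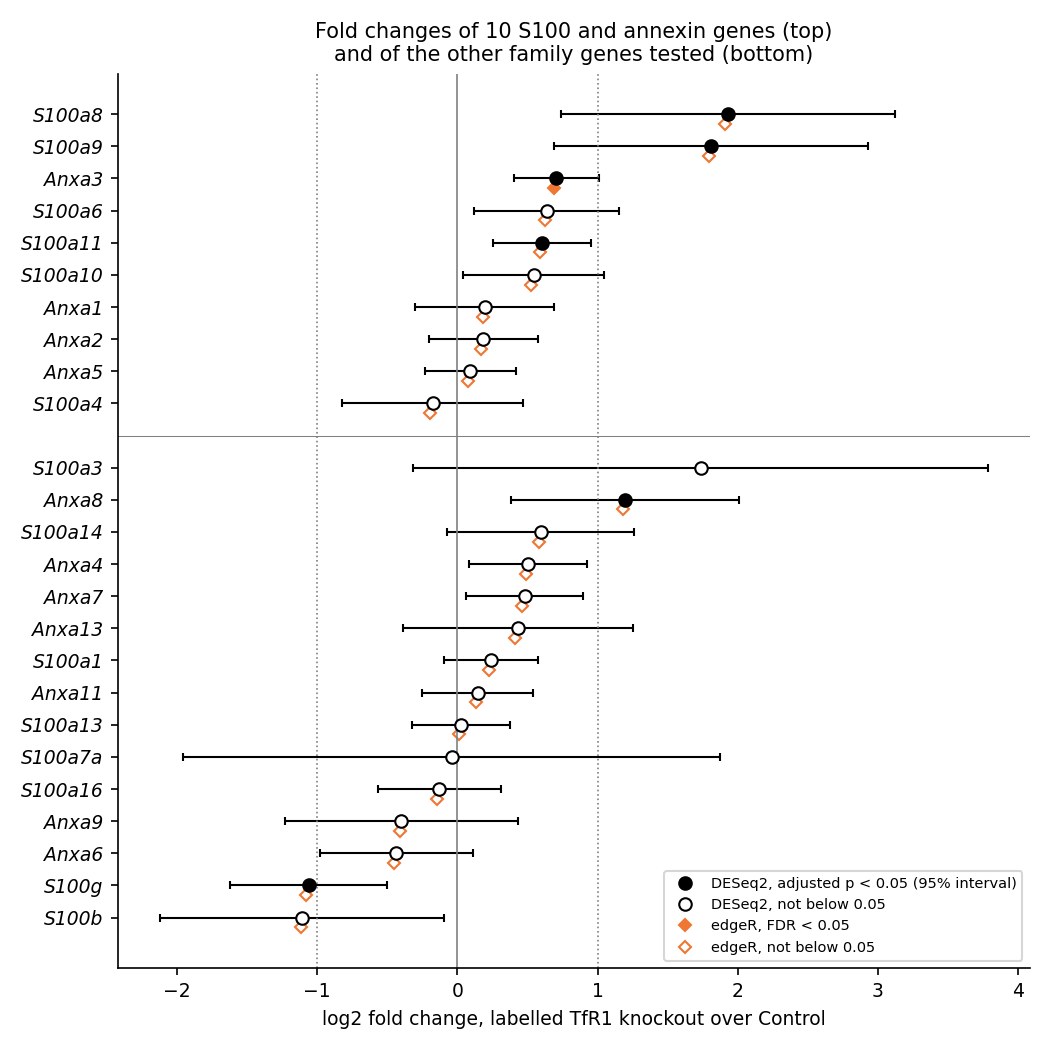
DESeq2 log2 fold changes (labelled TfR1 knockout over Control, with 95% intervals) and edgeR log2 fold changes (diamonds, none where edgeR's filter removed the gene) of the 10 members, top, and of the 15 other S100 and annexin genes tested, bottom, with dotted lines at a 2-fold change. S100a8 and S100a9 lie past 2-fold with wide intervals, and Anxa3, at less than 2-fold, is the 1 member with an adjusted p under 0.05 by both tools.

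**Figure D4:**
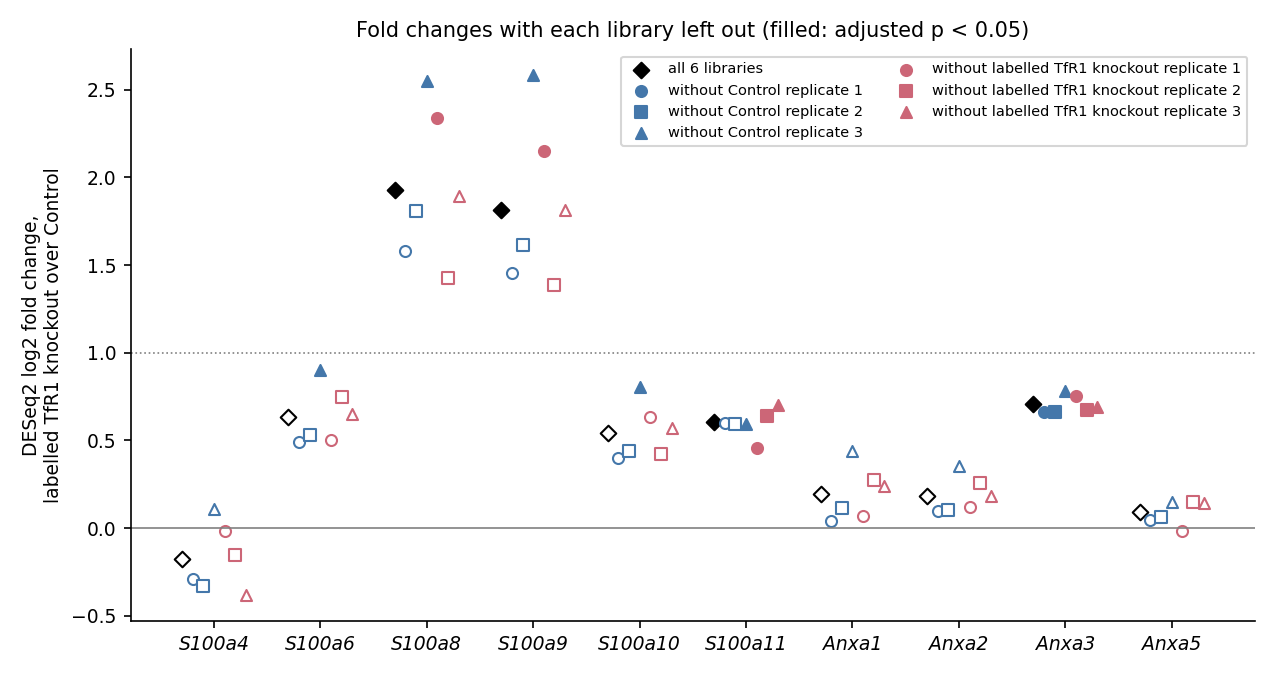
DESeq2 log2 fold change of each member with all 6 libraries (diamond) and with each library left out in turn, where filled marks have an adjusted p under 0.05. Leaving out Control replicate 3 gives the highest value for 9 of the members but not for S100a11, and Anxa3 stays filled throughout.

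Tubule injury markers were also higher, and their part in the values of S100a11, Anxa3 and the other members was not tested. The sum of 12 such markers was 44428 to 51601 normalized counts in Control and 109411 to 179381 in the labelled knockouts. Of the 12, 8 were higher by DESeq2 and 6 by edgeR, and Spp1, which encodes osteopontin, had the highest count, with 31169 ± 2975 in Control and 107991 ± 24851 in the labelled knockouts (mean ± SD, n = 3 each). Of 8 markers of the mature nephron and collecting duct, 4 were lower by DESeq2 and 1, Aqp2, the water channel of the collecting duct, was higher. Slc34a1, the phosphate transporter of the proximal tubule and the highest of them in count, had a log2 fold change of -0.83 ± 0.38 SE (DESeq2 adjusted p = 0.131). Of 6 collecting duct markers, Aqp2 included, 2 were higher by DESeq2 and 1 by edgeR. Of 7 urothelial and 6 endothelial markers 0 were called by DESeq2 and 0 by edgeR (1 urothelial marker higher and 0 endothelial markers at an unadjusted p under 0.05 by each tool), with log2 fold changes of 0.80 ± 0.30 SE (DESeq2 adjusted p = 0.0463, under 2-fold) for Upk3a, a urothelial plaque protein, and 0.16 ± 0.28 SE (0.767) for Pecam1, an endothelial adhesion protein.

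To compare levels between genes, normalized counts were divided by the length of each gene's exons in kilobases. This length joins all exons annotated for any transcript of the gene, used or not in these kidneys. The order of genes depends on it: Anxa2 (3731 bases) exceeded Anxa5 (1678 bases) by mean normalized count in Control (5506 and 5039) but not per kilobase. On this scale S100a11 was the highest member in Control (9069 ± 75 per kilobase, mean ± SD, n = 3), followed by Anxa5 (3003 ± 223), S100a10 (2485 ± 726), S100a6 (2440 ± 728), Anxa2 (1476 ± 286), Anxa3 (884 ± 83), Anxa1 (375 ± 104), S100a4 (318 ± 102), S100a8 (145 ± 92) and S100a9 (136 ± 100). The values of Anxa5 and S100a10 overlapped in Control, as did those of S100a10 and S100a6. Those of Anxa1 and S100a4 and of S100a8 and S100a9 overlapped too, so ranges did not resolve the order within these pairs. Library by library, S100a10 lay above S100a6 and Anxa1 above S100a4 in every Control. Control replicate 3 reversed the order of Anxa5 and S100a10 and that of S100a8 and S100a9. In the labelled knockouts the order was S100a11 (13770 ± 2377 per kilobase), S100a6 (3790 ± 639), S100a10 (3620 ± 550), Anxa5 (3201 ± 411), Anxa2 (1678 ± 151), Anxa3 (1442 ± 89), S100a8 (551 ± 346), S100a9 (477 ± 249), Anxa1 (429 ± 63) and S100a4 (281 ± 70). There S100a6, S100a10 and Anxa5 overlapped their neighbours, as did S100a8, S100a9 and Anxa1. S100a8 and S100a9, the lowest members in Control, stood above Anxa1 and S100a4 by their means in the labelled knockouts. In labelled knockout replicate 1, however, S100a8 (190) lay below Anxa1 (500) and S100a4 (215), and S100a9 (227) lay below Anxa1. This change of order was therefore not resolved.

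**Figure D5:**
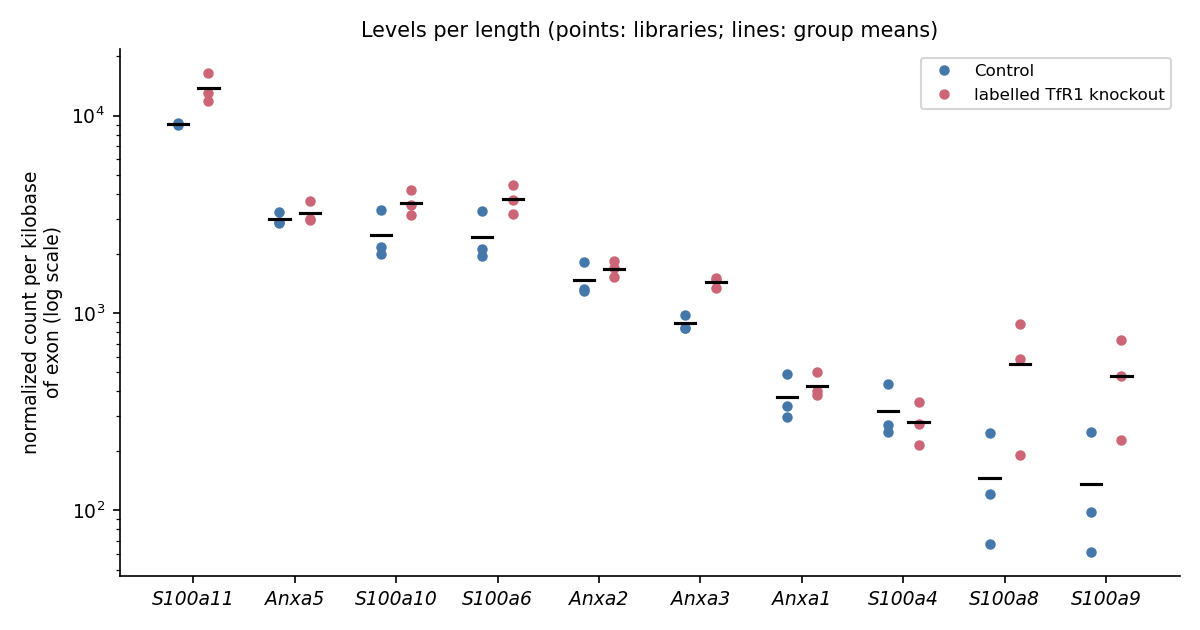
Levels of the 10 members per kilobase of exon (log axis), with points for libraries and lines for group means, ordered by the Control mean. S100a11 is highest in both groups (9069 and 13770), and S100a8 and S100a9 span the widest range between libraries.

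Ratios of partner transcripts were taken per library on the same scale, so their size depends on the same exon lengths. S100a10 to Anxa2 was 1.53, 1.62 and 1.84 in the Controls, in replicate order, and 1.72, 2.77 and 2.08 in the labelled knockouts. The groups overlapped through labelled knockout replicate 1, and replicate 2 was the highest. S100a8 to S100a9 was 1.09, 1.24 and 0.99 in the Controls and 0.84, 1.21 and 1.22 in the labelled knockouts, so the calprotectin subunits kept a ratio near 1 in both groups while their counts differed more than 10-fold between libraries. S100a11 to Anxa1 was 30.9, 27.0 and 18.2 in the Controls and 32.8, 34.1 and 29.4 in the labelled knockouts, again with overlap.

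Across the 6 libraries S100a8 and S100a9 ran closest of the members (Pearson r = 0.99 of log2 normalized counts plus 1), followed by S100a9 and S100a10 (0.98) and Anxa1 and Anxa2 (0.97). S100a4 ran least with the others, its r between -0.49 (with S100a11) and 0.35 (with Anxa2). Among 12104 genes outside the members whose mean reached 100 normalized counts, the closest to S100a8 was Smim7 (r = 0.997), to S100a9 Kdm3a (0.994), to S100a10 Rlf (0.996), to S100a11 Gsdmc3 (0.994), to S100a6 Zbtb22 (0.993) and to S100a4 Zfp512b (0.985). The closest to Anxa3 was Myd88 (0.996), to Anxa1 Cyp2s1 (0.994), to Anxa2 Casp4 (0.992) and to Anxa5 H2-Eb1 (0.989). These are the highest of 12104 values over only 6 libraries, which share group and tissue composition, and serve as a description.

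Of the 19 other S100 and annexin genes in the tables, 15 were tested and 4 (Anxa10, S100a2, S100a5 and S100z) had too few counts. By DESeq2, 1 was higher and 1 lower past both thresholds, beside 4.41% and 4.46% of all genes tested. By edgeR 0 and 0 were called, with 3 higher and 2 lower at an unadjusted p under 0.05 by either tool. The median log2 fold change of the 15 was 0.15. Anxa8, an annexin of stratified and injured epithelium, had 45.3, 80.9 and 128 normalized counts in the Controls and 141, 224 and 216 in the labelled knockouts, with no overlap. It rose 2.29-fold (log2 fold change 1.20 ± 0.41 SE, DESeq2 adjusted p = 0.0313; edgeR FDR = 0.122). S100g, the calbindin of calcium-transporting tubules, had 10753, 12004 and 14290 in the Controls and 4847, 8454 and 4448 in the labelled knockouts. Its groups did not overlap either, and it fell by 1.06 ± 0.29 SE on the log2 scale (DESeq2 adjusted p = 0.00322; edgeR FDR = 0.0598). Next to S100g the highest counts belonged to Anxa6 (log2 fold change -0.44 ± 0.28 SE, DESeq2 adjusted p = 0.311) and S100a1 (0.24 ± 0.17 SE, 0.381).

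Of 20 genes whose proteins bind S100 proteins or annexins or act with them at the cell surface, 4 were higher and 1 lower by DESeq2, 2 and 0 by edgeR. Over all genes tested the shares were 4.41% and 4.46% by DESeq2, 2.48% and 2.31% by edgeR. Anxa11, not called, is also among the other annexin genes above. At an unadjusted p under 0.05 edgeR had 5 higher and 2 lower. The median log2 fold change by DESeq2 was 0.38, against 0.01 for all genes tested. Plaur, the urokinase receptor, had 134, 130 and 164 normalized counts in the Controls and 456, 498 and 316 in the labelled knockouts. It rose without overlap (log2 fold change 1.57 ± 0.26 SE, edgeR FDR = 0.0142), while Plau, urokinase itself, had 15955, 18241 and 9833 against 8821, 6641 and 5973 and fell by 1.04 ± 0.28 SE on the log2 scale (DESeq2 adjusted p = 0.00346; edgeR FDR = 0.0662).

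Fpr2, a receptor of Anxa1 on myeloid cells, had 4.1, 6.4 and 9.7 normalized counts in the Controls and 24.9, 43.5 and 50.1 in the labelled knockouts. It rose in all 3 by this measure (log2 fold change 2.58 ± 0.61 SE, edgeR FDR = 0.0272), although its exons overlap those of Fpr3 in the annotation. Ager, the receptor RAGE that binds S100a8 and S100a9, had 128, 155 and 208 in the Controls and 192, 1176 and 619 in the labelled knockouts. Its groups overlapped through labelled knockout replicate 1 (log2 fold change 2.02 ± 0.54 SE, DESeq2 adjusted p = 0.00284; edgeR FDR = 0.0864), and within the labelled knockouts it ranked the libraries as S100a8 and S100a9 did. Trpv6, an epithelial calcium channel that S100a10 and Anxa2 bring to the membrane, had 75.9, 95.4 and 130 in the Controls and 654, 200 and 270 in the labelled knockouts. It rose without overlap by DESeq2 (log2 fold change 1.90 ± 0.46 SE, adjusted p = 0.000818), with an edgeR FDR of 0.0594.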

How the data were processed

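Poly-A RNA from whole kidneys was sequenced as single-end 100 bp reads. Per the labels and the study's methods, the authors trimmed reads with Trimmomatic, aligned them to mm9 with TopHat2 2.0.11 and counted uniquely mapped reads per gene with HTSeq; they deposited raw counts, whole numbers not normalized, in a table for each group (24422 genes, 6 libraries). Here both tables were joined and fitted over all genes with DESeq2 1.42.0 (R 4.3.3, median-ratio size factors, Wald test, two-sided, Benjamini-Hochberg adjustment, no covariate). Genes were called at an adjusted p under 0.05 and at least 2-fold. edgeR 4.0.16 (quasi-likelihood) and limma 3.58.1 (voom) were alternatives, as were other scalings and filters, a replicate block and each library left out. Normalized counts are counts divided by size factors. Exon lengths came from GENCODE vM1 (mm9). Genes named beyond the members were, of the other S100 and annexin genes, those called and the 3 of highest mean count, of the partners and receptors those called, for each member the closest gene by correlation, of the neutrophil list Ly6g, Mpo, Elane, Cxcr2 and Csf3r, and of each other marker list the gene of highest count. Retnlg, Mmp8, Camp and Ltf of the neutrophil list were named in addition, after their values were seen. The members, lists and tests were chosen with earlier results of these data known. Intervals cover the model's error only, and the depth of 16591156 to 22898008 counts leaves S100a8 and S100a9 with as few as 32 and 39 counts in a library.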

Additional observations from a re-analysis of the deposited data

How the results depend on the processing

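Over 10 members and 15 alternatives, 135 of 150 log2 fold changes kept their direction and side of the threshold, 12 lost the call (S100a8 and S100a9 in the same 6 alternatives) and 3 changed sign. The sign changes were in genes not called: Anxa5 at -0.011 with total-count scaling, Anxa5 between -0.018 and 0.15 and S100a4 between -0.38 and 0.11 with 1 library left out. With total-count scaling the median over all genes moved by -0.10, and relative to it Anxa5 was at 0.087, against 0.085 before. The 2 members called higher became 0 with edgeR and limma-voom, 4 with no fold threshold or 1.5-fold, and 0 to 2 with 1 library left out. Of the other S100 and annexin genes, the 1 called higher became 0 with edgeR, limma-voom, total-count and upper-quartile scaling and 0 to 1 with 1 library left out, and the 1 called lower became 0 with edgeR and limma-voom and 0 to 1 with 1 library left out (lost without Control replicate 3 or labelled knockout replicate 3). The cause of these losses was not tested. Same-numbered libraries did not deviate together (correlations -0.038, 0.055 and 0.090), so numbers were not taken as pairs, and 3 of 6 libraries correlated best with their own number. A replicate block left 2 members higher. It brought the members with a DESeq2 adjusted p under 0.05 and no fold threshold from 4 to 5 by adding S100a6 (0.0464), and changed no other call of a member. By this rule 6.72% of all genes tested were higher in the same fit. The block lowered the DESeq2 adjusted p of S100a8 from 0.0151 to 0.00015 and that of S100a9 from 0.0155 to 8.8e-05. S100a8 and S100a9 had raw counts from 32 to 296, and their fold changes moved most with 1 library left out.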
